A study of Caenorhabditis elegans with 2 samples.

Results

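The autosomes of Caenorhabditis elegans carry 336 of the 612 nuclear tRNA genes in the Ensembl annotation, and the chromatin immunoprecipitation peaks at these 336 genes are described here. The members are all genes of the tRNA biotype on chromosomes I, II, III, IV and V, with 66, 57, 64, 71 and 78 genes, and the rule uses no measured value. The protein was F44E2.7 fused to TY1, EGFP and 3xFLAG tags. It was expressed from the transgene wgIs381 in strain OP381, together with unc-119(+), which restores the unc-119 function missing in the unc-119(tm4063) background. The data are 2 biological replicates of 1 group of whole L4 larvae at 48 hours, grown from starved L1 larvae after bleaching, with chromatin sonicated to a range labelled 200 to 800 without a unit. The labels describe an anti-GFP immunoprecipitation, while the antibody entry itself names F44E2.7. No untagged or input sample was analysed here, so each value is a peak of the tagged strain with no background sample beside it. Whole animals were used, so many cells and few strongly bound cells cannot be told apart.

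Each gene was given the peak of highest signal whose summit, the single base the authors marked as the top of a peak, lay within 200 bp. The authors' thresholded list of both replicates held 896 peaks, 732 of them on the autosomes, and their ranked list held 108809 peaks, most of them weak. The lists carry the irreproducible discovery rate (IDR), an estimate of how poorly 2 rankings agree on a peak. Every member in the thresholded list had an IDR of 0.01 or lower in the ranked list. A low IDR in this list does not mean that each replicate alone had the peak. For example, F35H8.t1 had an IDR of 0.000655 and no ranked summit in replicate 1. Signal is the authors' enrichment value, and it is compared only within a list. The files give no read counts, so depth is unknown and weak peaks cannot be told from absent ones.

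tRNA genes are transcribed by RNA polymerase III, an enzyme devoted to small structural RNAs. Their promoter lies inside the gene. The A box near the start and the B box near the end are read by TFIIIC, which brings in TFIIIB and the polymerase, and a run of T residues after the gene ends transcription. The genome holds many copies of most tRNA genes, and a mature tRNA does not tell from which copy it came.

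Several genes that carry the results are shown here with exact matches to the A box and B box patterns in capitals. The first entries are genes of high signal, F44A2.t1 and T28C12.t1 as sequences found once in the genome, Y39A1A.t1 as a repeated one, and T23F1.t1 and T23F1.t2 as neighbours under 1 peak. C14B9.t2 has an intron between its boxes. Y40H7A.t1, without an exact match to the B box pattern, had no thresholded summit. T23F1.t1 has no exact match to the A box pattern. The bases are from the RefSeq WBcel235 genome and run along the strand of the gene.
F44A2.t1 (tRNA-Ala, chrV:9318202-9318273, plus strand): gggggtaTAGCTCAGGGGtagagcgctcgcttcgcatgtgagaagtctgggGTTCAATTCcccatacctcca
T28C12.t1 (tRNA-Cys, chrV:6335398-6335469, plus strand): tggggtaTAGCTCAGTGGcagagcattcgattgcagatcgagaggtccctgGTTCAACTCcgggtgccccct
Y39A1A.t1 (tRNA-Thr, chrIII:10624742-10624813, minus strand): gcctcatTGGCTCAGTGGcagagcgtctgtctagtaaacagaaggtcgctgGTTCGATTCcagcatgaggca
T23F1.t1 (tRNA-Lys, chrV:15465086-15465158, plus strand): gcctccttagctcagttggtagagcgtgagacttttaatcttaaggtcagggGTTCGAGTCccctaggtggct
T23F1.t2 (tRNA-Pro, chrV:15465225-15465296, minus strand): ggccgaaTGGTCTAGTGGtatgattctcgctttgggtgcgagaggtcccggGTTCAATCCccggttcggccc
C14B9.t2 (tRNA-Leu, chrIII:8109603-8109724, plus strand): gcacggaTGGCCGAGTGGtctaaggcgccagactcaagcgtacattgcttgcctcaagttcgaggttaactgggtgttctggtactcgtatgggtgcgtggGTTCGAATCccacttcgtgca
Y40H7A.t1 (tRNA-His, chrIV:15187344-15187415, plus strand): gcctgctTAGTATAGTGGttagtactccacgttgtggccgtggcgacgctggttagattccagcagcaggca

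Thresholded summits stood at 144 of the 336 autosomal tRNA genes (42.9%, exact Clopper-Pearson 95% interval 37.5 to 48.3%). These and later intervals cover counting error over genes only, and genes are not independent replicates. Among all 40868 annotated autosomal genes 2.22% had a summit within the same distance, and among windows of 472 bp, the length of a median tRNA gene with its margins, 0.413% held one. The 144 genes shared 131 distinct peaks, since 13 peaks each served 2 neighbouring genes. Chromosome X had a summit at 106 of its 276 tRNA genes (38.4%, interval 32.6 to 44.4%), so the shares of the autosomes and X lay within each other's intervals. Signals at genes with a summit had a median of 91.4 on the autosomes (range 64.3 to 202) and 105 on X (range 69.4 to 218). The other 600 autosomal peaks of the same list had a median signal of 82.2 (quartiles 73.6 and 101), against 91.2 (quartiles 82.7 and 106) for the 131 peaks at tRNA genes.

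In the ranked list, 290 of the 336 genes (86.3%, interval 82.2 to 89.8%) had a summit. This list is permissive, since 46.5% of equal autosomal windows and 52% of all autosomal genes also had one in it. Signal also differed. The 271 ranked peaks at tRNA genes had a median of 69.4 (quartiles 48.5 and 90.7), and the other 89556 autosomal ranked peaks had a median of 24.0 (quartiles 15.1 and 34.2). Of the 290 genes, 144 had an IDR of 0.01 or lower, 46 had an IDR up to 0.05, 19 up to 0.1 and 81 above that. The 46 genes of the next class had a median signal of 63.4, the 19 genes one of 54.4, and the 81 genes one of 38.5. Signals of the classes overlapped, since genes above an IDR of 0.1 reached 83.3 and thresholded genes began at 64.3.

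Genes on either side of the threshold differed little. Just inside it, by IDR, stood C06B8.t3 (IDR 0.00992, signal 64.7), C52E12.t2 (0.00931, signal 85.2), F15D3.t1 (0.00921, signal 76.0), F27D4.t1 (0.00912, signal 80.4) and T04D3.t3 (0.00887, signal 70.3). Just outside stood M57.t1 (IDR 0.0101, signal 82.7), B0491.t2 (0.0104, signal 75.2), F22B7.t1 (0.0105, signal 74.7), and the neighbours W09G10.t2 and W09G10.t3 under 1 peak (0.0115, signal 75.0).

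**Figure D1:**
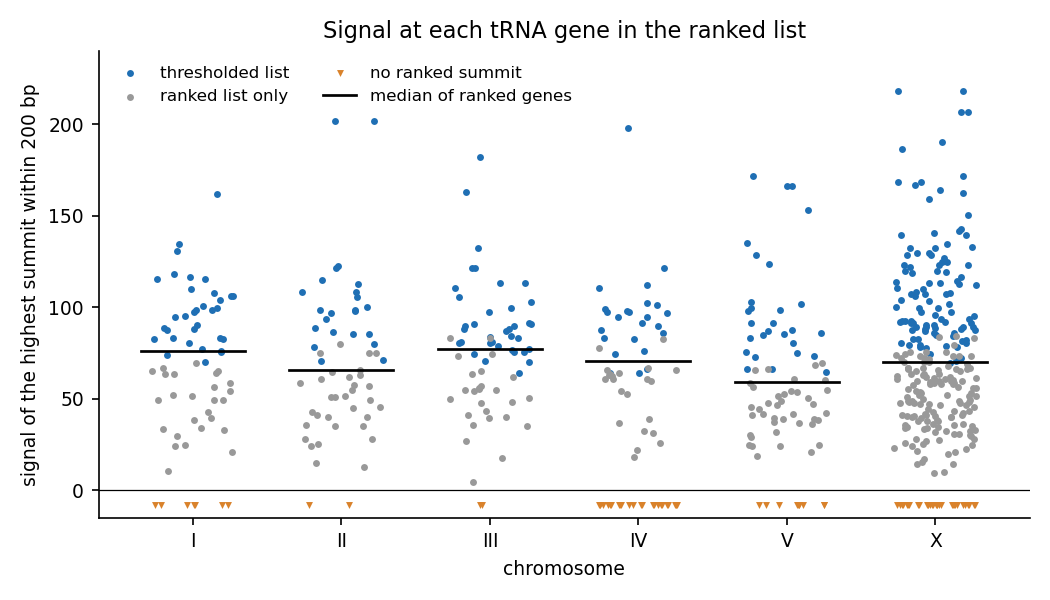
Signal in the ranked list of the highest summit within 200 bp of each tRNA gene, by chromosome, with 1 point per gene, black lines at the median of genes with a ranked summit, and triangles below 0 for genes with none. Chromosome IV has 25 of the 46 autosomal genes without a ranked summit, while its ranked genes have a median signal of 70.8, near the 70.4 of all autosomes.

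The highest signals came from genes of unlike products and settings. Y69A2AR.t2 is a tRNA-Glu gene within an untranslated exon of mdf-2, which encodes a spindle checkpoint protein (chrIV:2639809-2639880). It had a pooled signal of 198, with 81.9 in replicate 1 and 123 in replicate 2. This gene occurs once in the genome and differs at 2 bases from the nearest other nuclear tRNA gene, a tRNA-Glu sequence with 15 copies. Counted from 1 at the 5′ end, the substitutions are C4T and G52T, the common copy's base first, and the second falls on the first base of the common copy's B box, at positions 52 to 60. The gene with the highest signal of any lone autosomal tRNA gene thus lacks the exact letters of the B box pattern.

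Y39A1A.t1, a tRNA-Thr gene in an intron of hpr-9, had a pooled signal of 182, with 87.5 in replicate 1 and 90.0 in replicate 2. Its body occurs 15 times in the genome. F44A2.t1, the single-copy tRNA-Ala gene printed above, had 172, with 79.2 in replicate 1 and 92.4 in replicate 2. The peak between the convergent genes T23F1.t1 (tRNA-Lys) and T23F1.t2 (tRNA-Pro) had 166, with 65.2 in replicate 1 and 105 in replicate 2. Its summit lay in the 66 bp that separate the genes, 94 bp from the start of the first and 116 bp from the start of the second. F52C9.t1 (tRNA-Thr, chrIII:5305905-5305976) followed at 163, with 57.9 in replicate 1 and 108 in replicate 2. C37A2.t1 (tRNA-Cys, chrI:6781803-6781874), in an intron of the cyclin E gene cye-1, reached 162 and was higher in replicate 1 (87.7) than in replicate 2 (73.5). T28C12.t1 (tRNA-Cys) had 153, with 51.4 in replicate 1 and 94.9 in replicate 2. ZC455.t1 (tRNA-Ser, chrV:12780386-12780467) had 135, with 36.0 in replicate 1 and 97.9 in replicate 2, the widest gap between replicates of these genes. T09B4.t1 (tRNA-Ile, chrI:6164191-6164264) had 134, with 56.7 in replicate 1 and 73.4 in replicate 2. The gene of highest signal was C37A2.t1 on chromosome I, Y39A1A.t1 on III, Y69A2AR.t2 on IV and F44A2.t1 on V.

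Each replicate alone supported far fewer genes. The list of replicate 1 held 178 peaks and reached 20 autosomal tRNA genes (5.95%), where 0.0766% of equal windows held a summit. The list of replicate 2 held 319 peaks and reached 58 genes (17.3%), where 0.144% of windows held one. In both lists stood 12 genes (3.57%, interval 1.86 to 6.16%) under 10 distinct peaks, and 11 of these 12 were among the 12 genes of highest pooled signal. The 12th was F22G12.t1 (tRNA-Val, chrI:13161061-13161133), with 55.6 in replicate 1 and 55.3 in replicate 2. Of the genes in the pooled list, 81 were in neither replicate's list. The authors' conservative list reached 133 genes, where 0.399% of windows held a summit, and 123 of them were also in the thresholded list.

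Most members had a ranked summit in both larval samples. Replicate 1 had a ranked summit at 271 genes, replicate 2 at 272, and both at 246. These lists are permissive too, since 44.8% of all autosomal genes had a ranked summit in replicate 1 and 45.9% in replicate 2, as did 28.7% and 31.4% of equal windows. Over those 246 genes the median signal was 33.9 in replicate 1 and 43.9 in replicate 2, which is 2.16 and 2.44 times the median of each whole ranked list. These genes were kept for a summit in both lists, and each took its highest peak, while the list medians cover all peaks. That choice by itself can raise the ratios, so they are a description only. Replicate 2 was higher at 192 genes and replicate 1 at 54. Spearman's rho between the replicates across these genes was 0.48. It describes these 246 genes, which share 2 libraries and in part their peaks.

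**Figure D2:**
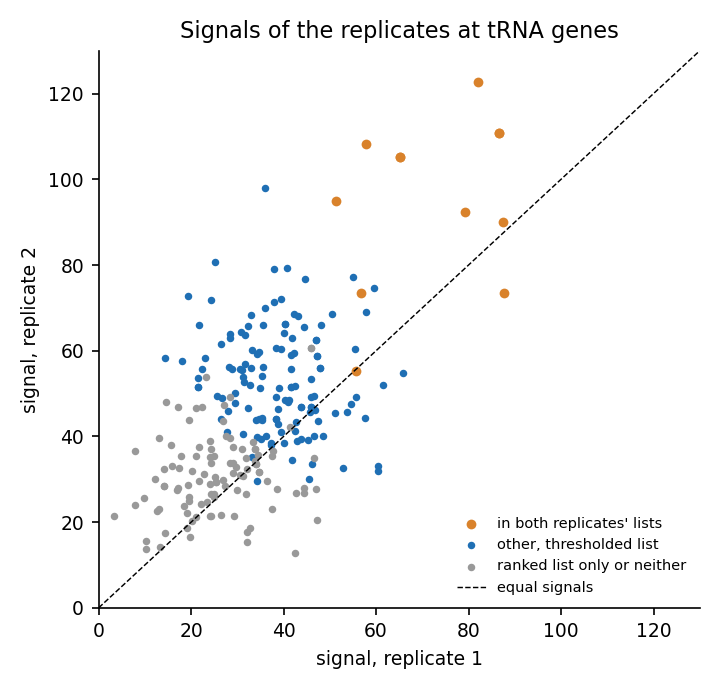
Signal at each autosomal tRNA gene in the ranked list of replicate 1 against that of replicate 2, for the 246 genes with a summit in both. Most points lie above the dashed line of equal signals (192 of 246). The 12 genes found in both replicates' thresholded lists lie toward the upper right, though not apart from all others, with neighbours under 1 peak sharing a point.

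Most thresholded summits fell inside the genes. At the 95 single genes with a thresholded summit, those with no other tRNA gene within 1000 bp, the median position was 20 bp past the 5′ end (quartiles 5 and 49). At 64 of them the summit was inside the gene, at 21 upstream and at 10 downstream. The A box began at base 8 and the B box at base 53 in the median, so the median summit lay between the boxes and the lower quartile just before the A box. Genes on the plus strand had a median of 19 bp and genes on the minus strand one of 24.5 bp. Single genes of signal at or above the median had a median position of 16 bp (quartiles -2.5 and 26, n = 43), against 33.5 bp (8.75 and 60.75, n = 52) at single genes of lower signal. Clustered genes had a median position of 15 bp with wide quartiles, -42 and 47, because a summit between neighbours counts for both.

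**Figure D3:**
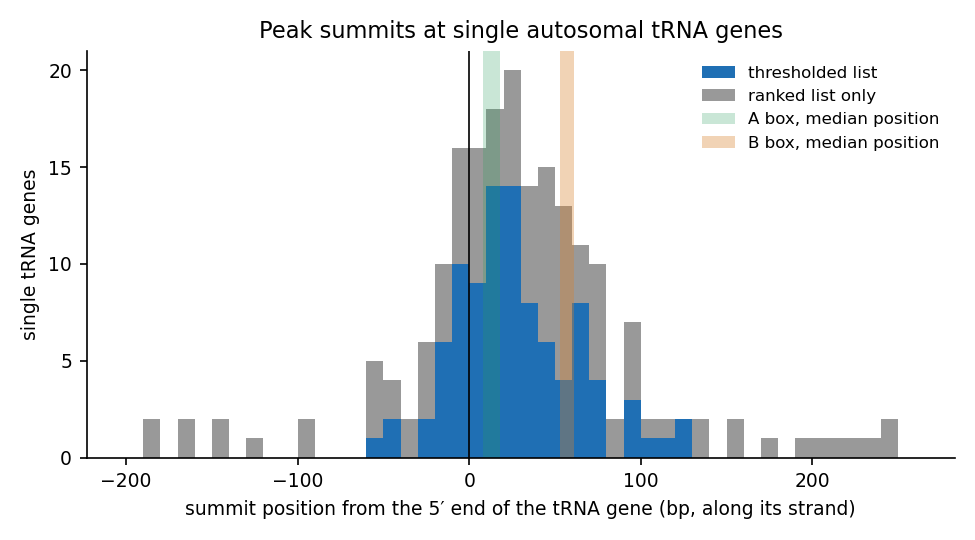
Number of single autosomal tRNA genes by the position of their summit in bp from the 5′ end along the gene's strand, for genes in the thresholded list (blue) and genes in the ranked list only (grey), stacked. Shaded bands show the median position of the A box (from base 8) and the B box (from base 53); thresholded summits have a median of 20 bp, while ranked-only summits have a median of 33 bp and reach both ends of the window.

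Nearly all members carry the B box pattern and a run of T residues, with or without a summit. The B box pattern, written GTTCGANNC or GTTCAANNC on the gene's strand, was found in 319 genes, and 140 of them (43.9%) had a summit. In windows of 72 bp tiled over the autosomes 0.739% held that pattern on 1 strand. Of the 17 genes without an exact match 4 had a summit (23.5%, interval 6.81 to 49.9%). These 4 were Y69A2AR.t2 and 3 genes of a tRNA-Met family, Y22D7AL.t3 (signal 121), T15B12.t1 (97.4) and F14B6.t1 (82.8). The summit of Y22D7AL.t3 lies past the gene's end, 150 bp from its start, and inside the neighbouring tRNA-Glu gene Y22D7AL.t4, which has a B box. That leaves 3 genes without an exact match whose summit lies in no other tRNA gene. Y40H7A.t1, also without a match, had a ranked signal of 18.2 at an IDR above 0.1. The A box pattern was in 237 genes, of which 103 (43.5%) had a summit, against 41 of 99 genes (41.4%) without its exact letters. In the first 30 bases of such tiled windows 0.124% held it. The A box pattern has a fixed spacing, so a gene without a match may still have an A box.

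A run of 4 T residues began within 30 bp after the gene at 332 of the 336 genes, in the median 5 bp after the end. All 144 genes with a summit had one, and the 4 genes without it had no summit (0 of 4, interval 0 to 60.2%). Of 30-base stretches tiled over the autosomes, 36.3% held TTTT. An intron interrupts 17 genes, and 5 of them had a summit (29.4%, interval 10.3 to 56.0%). The highest of these was C14B9.t2 at 113, with 39.4 in replicate 1 and 72.0 in replicate 2, and its summit lay 19 bp past the 5′ end. GC content had the same median, 58.3%, in genes with a thresholded summit, in genes of the ranked list alone and in genes with none.

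Repeated sequences had a summit more often than single ones. Genes whose whole body occurs 10 or more times in the genome had a summit at 88 of 164 (53.7%, interval 45.7 to 61.5%). Genes with 2 to 9 copies had one at 31 of 87 (35.6%, interval 25.6 to 46.6%), and genes found once at 25 of 85 (29.4%, interval 20.0 to 40.3%). The first and last of these intervals do not overlap, and the shares differed by 24.2 percentage points (interval 10.8 to 36.5). This comparison by copy number was chosen after the values were seen. On chromosome X, 62 of 155 genes with 10 or more copies and 16 of 55 single-copy genes had a summit. The median signal of genes with a thresholded summit, all of them past the same threshold, was 94.6 for 10 or more copies and 88.7 for 1 copy. In the ranked list 147 of 164 and 72 of 85 genes had a summit, with medians of 78.0 and 56.6. Replicate 2 alone gave shares of 21.3% for 10 or more copies and 14.1% for 1 copy. Replicate 1 alone gave 7.32% and 4.71%, and both intervals of the difference include 0. The sources used here do not say how reads that match several copies were placed, and the part of this in the result was not tested.

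Whether reads can be placed was read from the sequence. Of the 50-mers that cover each gene and 100 bp to either side, the median gene had 84.7% found once in the genome when it had a thresholded summit and 84.8% when it had no ranked one. Genes below 80% were different. Only 3 of these 36 had a thresholded summit (8.33%, interval 1.75 to 22.5%), against 141 of 300 other genes (47.0%, interval 41.2 to 52.8%). At T22A3.t4, T22A3.t2 and T22A3.t3, tRNA-Gly genes in introns of pash-1 with 34, 66 and 0% of 50-mers unique, no list held a summit. With genes below 80% left out, 87 of 147 genes with 10 or more copies (59.2%) and 24 of 79 single-copy genes (30.4%) had a summit. Unique flanks lift a gene with a repeated body above 80%, so this cut does not remove repeated bodies. Where reads of such bodies were placed was not tested.

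Genes of the same mature sequence differed among themselves. The 336 genes form 130 families of identical mature sequence, and 37 families hold 3 or more genes, 235 in all. In 29 of those 37 some genes had a summit and others did not, in 2 every gene had one, and in 6 none had. With 42.9% of all members at a summit, families of 3 or more would often be mixed even if summits were unrelated to family. The number of mixed families to be had that way was not computed. Over the 203 genes with a ranked summit in 34 such families, log2 signal had an SD of 0.69, and within families the pooled SD was 0.66. Over all 290 genes with a ranked summit the SD was 0.76. The spread between replicates was not taken out of these SDs. The tRNA-Thr family of Y39A1A.t1 has 8 autosomal genes, of which 5 had a summit, and its ranked signals ran from 47.7 to 182. In the tRNA-Pro family of T23F1.t2, 4 of 11 genes had a summit, with ranked signals of 14.9 to 166. In the tRNA-Lys family of T23F1.t1, 5 of 9 had one, with 42.3 to 166. The 166 in both families is the 1 peak between T23F1.t1 and T23F1.t2. The 14.9 belongs to ZK970.t2, which has 70.4% unique 50-mers.

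**Figure D4:**
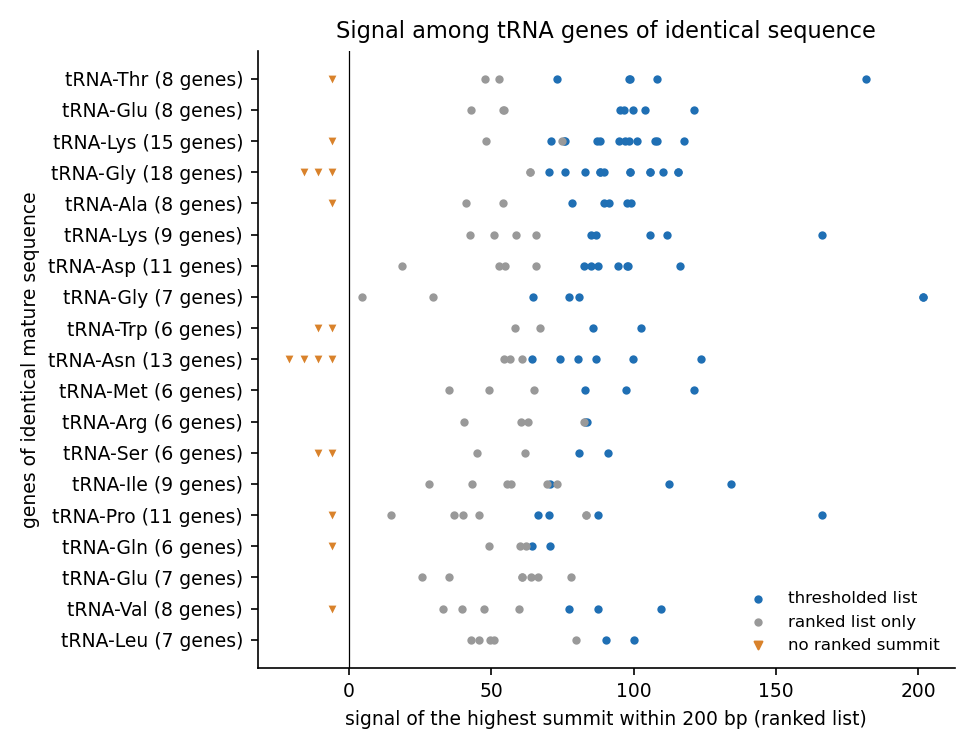
Ranked signal of each gene in the 19 families of identical mature sequence with 6 or more autosomal genes, ordered by median signal; triangles left of 0 are genes without a ranked summit. Most rows hold both blue points (thresholded) and grey points (ranked list only), while the 7 genes of a tRNA-Glu family are all grey. The tRNA-Pro family runs from 14.9 to 166, the latter a peak shared with a neighbouring tRNA-Lys gene.

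Families of 1 product could also part. The larger tRNA-Glu family had a summit at 5 of 8 genes, and the other, which differs from it at 13 bases, at 0 of 7. All 7 had a ranked summit, with signals of 25.8 to 78.0. The tRNA-Cys family of 5 autosomal genes and a tRNA-Arg family of 3 had a summit at every gene.

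Of 3 tRNA-Gln genes with one and the same body, T03E6.t1 had a pooled signal of 103, with 41.6 in replicate 1 and 59.0 in replicate 2. F08G5.t3 had 64.3, near the lowest of the thresholded list, with 38.4 in replicate 1 and no ranked summit in replicate 2. Its pooled peak is shared with the neighbouring tRNA-Gln gene F08G5.t2, so that signal cannot be given to F08G5.t3 alone. Y4C6B.t1 had a summit in no list. Their bodies and the 40 bases before each are shown because the body is shared and the flanks are not. Capitals again mark the A and B boxes, and the flanks are in lower case.
Body of T03E6.t1 (chrV:16592237-16592308, minus strand), F08G5.t3 (chrIV:12416942-12417013, minus strand) and Y4C6B.t1 (chrIV:5334712-5334783, plus strand): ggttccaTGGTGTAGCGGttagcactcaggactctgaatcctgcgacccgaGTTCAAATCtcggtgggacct
Flank of T03E6.t1 (chrV:16592309-16592348): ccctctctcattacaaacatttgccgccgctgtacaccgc
Flank of F08G5.t3 (chrIV:12417014-12417053): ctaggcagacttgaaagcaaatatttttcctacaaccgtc
Flank of Y4C6B.t1 (chrIV:5334672-5334711): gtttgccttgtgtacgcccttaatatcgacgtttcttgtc

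By product, each of the 20 standard amino acids had at least 1 autosomal gene with a summit. The shares ran from 1 of 8 for tRNA-Phe (12.5%, interval 0.316 to 52.7%) to 6 of 6 for tRNA-Cys (100%, interval 54.1 to 100%). tRNA-Cys and tRNA-Lys, at 18 of 28 (64.3%, interval 44.1 to 81.4%), were the products whose interval lay above the 42.9% of all members. With 20 products compared, an interval can clear that share by counting error alone, and no allowance was made for this. tRNA-Cys had also been set apart earlier in these data. tRNA-Asp had one at 10 of 15 and tRNA-Gly at 20 of 35, and tRNA-Tyr (2 of 11), tRNA-Met (3 of 12), tRNA-His (3 of 11) and tRNA-Pro (6 of 22) were low. The intervals of these last 6 products include 42.9%. In the ranked list, where 52% of all autosomal genes had a summit, tRNA-Phe had one at 7 of 8 genes, tRNA-Tyr at 10 of 11, tRNA-Met at 11 of 12, tRNA-Pro at 21 of 22 and tRNA-His at 7 of 11 (63.6%, interval 30.8 to 89.1%). The selenocysteine tRNA gene K11H12.t1, which decodes a stop codon in selenoprotein messages, had no thresholded summit and a ranked signal of 38.7 (17.0 in replicate 1 and 27.6 in replicate 2). Of the 2 genes with no assigned product, DY3.t2 had a ranked signal of 10.6 and C08E8.t3 had no summit.

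**Figure D5:**
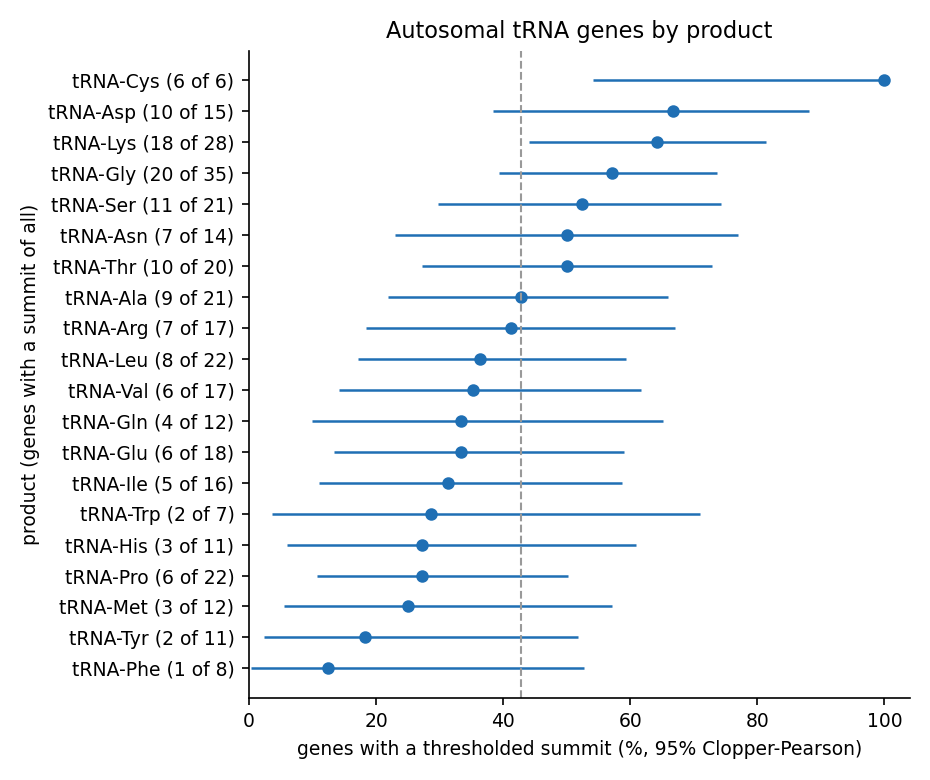
Share of autosomal tRNA genes with a thresholded summit by product, in percent, with exact 95% Clopper-Pearson intervals as bars, counts beside each name, and the share of all 336 genes (42.9%) as a dashed line. The tRNA-Cys and tRNA-Lys bars lie above the line and every other bar crosses it.

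The 6 tRNA-Cys genes all lie in introns of protein-coding genes. Below C37A2.t1 and T28C12.t1, already given, came K04A8.t3 at 128 (65.8 in replicate 1, 54.8 in replicate 2) and ZC412.t2 at 99.6 (40.2 in replicate 1, 64.1 in replicate 2). F32B4.t1 had 82.9 (38.8 in replicate 1, 42.9 in replicate 2) and F53F8.t1 had 73.3 (33.2 in replicate 1, 60.1 in replicate 2). T28C12.t1 is the single-copy sequence, and the other 5 share a body with 12 genome copies, so these 5 span 73.3 to 162. These tRNAs deliver cysteine to the ribosome.

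Of the 12 tRNA-Gln genes 4 had a thresholded summit. Besides T03E6.t1 and F08G5.t3, Y49E10.t1 had a summit at 70.6 (21.5 in replicate 1, 53.7 in replicate 2), and F08G5.t2 had the same peak as F08G5.t3. Below the threshold, B0228.t1 had a ranked signal of 64.4, R09E10.t1 one of 62.3, C10G8.t1 one of 60.1, C13B4.t1 one of 49.1, K02E11.t1 one of 39.7 and C36F7.t1 one of 20.8. Y4C6B.t1 and C06E4.t1 had none. Of the genes that share the 16-copy body, Y49E10.t1 and F08G5.t2 had a summit, R09E10.t1, C10G8.t1 and C13B4.t1 were ranked alone, and C06E4.t1 was in no pooled list.

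Among the other products, the highest signals were F35H8.t1 for tRNA-Arg (122), K02E2.t1 for tRNA-Asn (124), C35E7.t1 for tRNA-Asp (116) and Y65A5A.t4 for tRNA-His (102). C04A2.t1 led tRNA-Leu (115), Y22D7AL.t3 tRNA-Met (121, the peak inside its tRNA-Glu neighbour), C06G4.t1 tRNA-Phe (83.1), B0523.t1 tRNA-Trp (103), F56F4.t1 tRNA-Tyr (82.7) and C05G6.t1 tRNA-Val (122). The highest tRNA-Met gene with a summit in no other tRNA gene was T15B12.t1 (97.4). Replicate 2 was higher than replicate 1 at K02E2.t1 (74.6 against 59.6), C35E7.t1 (68.6 against 50.4), C04A2.t1 (66.0 against 48.1) and Y22D7AL.t3 (58.7 against 47.3). It was also higher at C06G4.t1 (38.4 against 37.2), B0523.t1 (68.3 against 32.9), F56F4.t1 (64.3 against 30.8) and C05G6.t1 (71.3 against 38.0). At Y65A5A.t4 replicate 1 was higher (54.6 against 47.5), and at F35H8.t1 replicate 2 alone had a ranked summit (79.5).

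By chromosome, III had a summit at 56.2% of its genes (interval 43.3 to 68.6%), I at 33 of 66 genes (37.4 to 62.6%), II at 40.4% (27.6 to 54.2%), V at 35.9% (25.3 to 47.6%) and IV at 24 of 71 genes (33.8%), with all 5 intervals overlapping. Genes on chromosome arms, the outer parts beyond the central 50% of the length, had a summit at 66 of 166 (39.8%, interval 32.3 to 47.6%), against 78 of 170 in the centres (45.9%, interval 38.2 to 53.7%). The difference of -6.12 percentage points had an interval of -16.9 to 4.86, which includes 0. Arms were below centres on I, III and V, and above them on II (12 of 28 on arms, 11 of 29 in the centre) and IV (18 of 50 on arms, 6 of 21 in the centre).

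Chromosome IV differed in the ranked list. It had a ranked summit at 46 of 71 genes (64.8%, interval 52.5 to 75.8%), whereas I, II, III and V had one at 59 of 66, 55 of 57, 62 of 64 and 68 of 78. Chromosome IV also holds 14714 of the 15363 annotated nuclear piRNA genes, short genes whose RNAs guide the germline Argonaute PRG-1, and they crowd into long stretches. Among the 40 tRNA genes with 10 or more piRNA genes within 10 kb, 18 had a ranked summit (45.0%, interval 29.3 to 61.5%). Among the other 31 genes of the chromosome 28 had one (90.3%, interval 74.2 to 98.0%). The difference was -45.3 percentage points (interval -62.8 to -22.3), and with the ranked peaks of 1 replicate alone it was -29.6 points for replicate 1 and -37.1 points for replicate 2. Windows of equal length showed the same split, since 15% of those with 10 or more piRNA genes nearby held a ranked summit, against 47.1% of the other windows of chromosome IV.

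The tRNA genes of these stretches that did have a ranked summit had a median signal of 74.4, against 70.8 at the other ranked genes of chromosome IV. With piRNA genes counted within 5 kb the order of these medians turned round, at 65.6 and 74.5, while the shares were 15 of 36 and 31 of 35. In the thresholded list 9 of 40 (22.5%, interval 10.8 to 38.5%) and 15 of 31 (48.4%, interval 30.2 to 66.9%) had a summit. Among genes with 80% or more unique 50-mers, 18 of 34 and 27 of 30 had a ranked summit. Y4C6B.t1, the tRNA-Gln gene in no list, is one of the 40 and has 53 piRNA genes within 10 kb. The class by piRNA genes was chosen after the values were seen, and the cause of the difference was not tested. Of the 46 autosomal genes without a ranked summit, 22 lie in these stretches and 15 have less than 80% unique 50-mers, 6 of them in both groups, which leaves 15 in neither. The 46 are absent from the pooled ranked list used here, but 13 of them had a summit in the ranked list of a replicate. The other 33 had a summit in no list. T28F2.t1 (tRNA-Met), 1 of the 13, had a signal of 116 in the conservative list and 66.7 in the ranked list of replicate 2.

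tRNA genes in clusters, with another within 1000 bp, had a summit at 49 of 101 (48.5%, interval 38.4 to 58.7%), and single genes at 95 of 235 (40.4%, interval 34.1 to 47.0%). The difference of 8.09 percentage points had an interval of -3.94 to 20.1, which includes 0. Neighbours share peaks, so with each peak counted once the shares were 46.2% and 40.4%. Of the 39 clusters of 2 genes, 12 had a summit at both genes, 10 of them the same summit, 10 had one at 1 gene and 17 had none.

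The 2 largest clusters hold 4 genes each. In the C12C8 cluster on chromosome I, 4 tRNA-Gly genes of identical sequence form 2 divergent pairs. The pair C12C8.t5 and C12C8.t2 had a pooled signal of 98.6 (43.7 in replicate 1, 46.8 in replicate 2), and the pair C12C8.t4 and C12C8.t3, in introns of cbl-1, had a ranked signal of 63.5 at an IDR of 0.019 (34.6 in replicate 1, 31.8 in replicate 2). In the Y65A5A cluster on chromosome IV, Y65A5A.t1 (tRNA-Ala) had 99.1, Y65A5A.t2 (tRNA-Ala) 89.5 and Y65A5A.t4 (tRNA-His) 102, while Y65A5A.t3 (tRNA-Val) had a ranked signal of 59.7. Each of the 5 clusters of 3 genes, which tie for the next place, had 1 or more genes at a summit. K04C2 had one at all 3, with K04C2.t2 and K04C2.t1 under 1 peak.

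Protein-coding genes span 197 of the members, mostly in introns (188 genes, with 9 in untranslated exons). Inside them 85 of 197 had a summit (43.1%, interval 36.1 to 50.4%), and outside 59 of 139 (42.4%, interval 34.1 to 51.1%). The difference was 0.70 percentage points (interval -10.4 to 11.7). Genes read on the same strand as their host had a summit at 49 of 118 (41.5%), and genes on the opposite strand at 35 of 78 (44.9%), so orientation to the host went with no difference beyond these intervals (32.5 to 51.0% and 33.6 to 56.6%). Median signal at a summit was 89.5 inside and 97.7 outside. Genes with a protein-coding gene start within 500 bp had a summit at 38 of 75 (50.7%, interval 38.9 to 62.4%), and the others at 106 of 261 (40.6%, interval 34.6 to 46.8%).

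Among the 163 host genes, 6 held 3 tRNA genes and none held more. In brd-1, which encodes a partner of the BRCA1 homologue, all 3 had a summit within 200 bp. K04C2.t3 (tRNA-Lys) had 106, with 42.2 in replicate 1 and 68.6 in replicate 2. The divergent K04C2.t2 and K04C2.t1 (tRNA-Gly) shared 1 peak at 88.3. Its summit lies inside K04C2.t2 and 139 bp before the start of K04C2.t1. In pxn-1, a peroxidasin gene, ZK994.t2 had 85.1 and ZK994.t3 had 73.0, while ZK994.t1 had a ranked signal of 65.6. In spe-9, which encodes a sperm surface protein, C17D12.t1 had 97.1 and C17D12.t2 had 88.2, while C17D12.t3 had a ranked signal of 49.6. The 3 genes in nimk-1 and the 3 in srv-16 had ranked summits alone, at 24.4 to 51.0 and 52.9 to 60.9. The 3 in pash-1, a gene of microRNA processing, were in no list.

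RefSeq also annotates 180 tRNA pseudogenes on the autosomes, which are not members. Of these 14 had a thresholded summit (7.78%), against 144 of 336 tRNA genes.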

How the data were processed

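Peak lists of anti-GFP ChIP-seq from 2 replicates were used as deposited. Per the file notes and labels, the authors called peaks on ce11, both on the replicates together and on each one. For read alignment and peak calling, tools and settings: not given in the sources used here. Deposited columns used were an enrichment signal and, in ranked lists, a −log10 IDR, both set by the authors. Read counts are not in these lists, and count models were not used.

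Genes came from Ensembl release 115 and products, exons and bases from RefSeq, both on WBcel235, and all 336 genes matched a RefSeq record. Clusters used a gap of 1000 bp, centres the middle 50% of each chromosome, copies exact matches of the gene body, and uniqueness 50-mers over the gene and 100 bp to each side. Coordinates are 1-based. Shares have exact Clopper-Pearson 95% intervals, differences intervals combined from their bounds, and medians binomial order-statistic intervals. No hypothesis test was run, since genes are not replicates. Whether the 2 samples came from separate cultures is stated only as biological replicates. The gene matching was tested on simulated summits.

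Named genes are the 12 of highest signal, the highest of each autosome and product, every tRNA-Cys and tRNA-Gln gene, 5 to each side of the threshold, the 3 largest clusters, up to 15 genes in both replicates' lists, hosts of 3 or more, and a few chosen after their values were seen (genes without a B box, an intron gene, families). Some of the genes this rule names are not reported here. Members and lists were chosen with earlier results of these data known. Tools were matplotlib 3.10.9, scipy 1.17.1, pandas 2.3.3 and numpy 2.4.6 under Python 3.11.15.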

Additional observations from a re-analysis of the deposited data

How the results depend on the processing

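For 9 results, 23 alternative settings gave 70 recomputed values. Of these, 55 lay within the interval of the reported value, 15 lay outside it and none turned round a difference whose interval excludes 0. The comparisons on piRNA density and copy number, and their alternatives, were chosen after seeing the data. The share of autosomal tRNA genes with a summit was 25.6% with the summit required inside the gene, 9.23% at an IDR of 0.001 or lower and 30.6% with tRNA pseudogenes included. It was 5.95 to 17.3% when one replicate was left out, where the lists are shorter. The median signal was 124 at an IDR of 0.001 or lower, and 61.0 to 66.3 without a replicate, on each list's own scale. The median position was 11.5 to 28 bp without a replicate. The clustered minus single difference was -5.45 percentage points with the summit inside the gene, and 0.80 to 1.40 without a replicate. The share of genes in the list of each replicate was 13.4% with ranked lists at an IDR of 0.05 or lower. The copy number difference of 24.2 points was 3.92 at an IDR of 0.001 or lower, 4.93 in the ranked list, and 2.61 to 7.22 without a replicate, each with an interval that includes 0. It was 28.8 among genes with 80% or more unique 50-mers, a class that keeps repeated bodies with unique flanks. The cause of these changes was not tested beyond the list lengths given. No paired analysis was possible because there is 1 group. Depth is unknown, so a missing summit does not show a lack of binding.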
